A study of Homo sapiens with 16 samples.

Results

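The genes described here are the 179 human genes that the authors' deposited table for MDA231 brain metastases names under DNA damage response, DNA repair or DNA replication. They were taken as the union of the gene identifiers in the rows "cellular response to DNA damage stimulus", "DNA repair" and "DNA replication", with SIRT1 left out by the rule, which would otherwise have made 180. They are 6.76% of the 2646 genes named anywhere in that table and 4.94% of the 3626 listed genes with an annotated process. Of the 16792 background genes, 21.6% were listed and 15.8% were named in a row. The genes were thus chosen by the listing and enrichment values of these 3 rows, so membership and the values of the rows are given as a description.

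The study grew brain-metastatic derivatives of 2 human breast cancer lines, MDA231 and HCC1954, in mouse brains for 30 days. Both arms received 250 mg/kg of 5-fluorocytosine, and RNA was taken after 12 h. Flura-seq marks new RNA in cells that carry a cytosine deaminase, which turns 5-fluorocytosine into a fluorine-labelled uracil. The marked RNA is recovered with an antibody. All groups had the same dose and time. Any effect of the drug or its product on these genes could therefore not be told apart and was not tested. There are 4 groups of 4 libraries: MDA231 IP, made from RNA pulled down with anti-BrdU antibody (2.5 µg for a brain), MDA231 input, HCC1954 IP and HCC1954 input. The input holds RNA of tumour and host brain together, and each line is a single derivative. The files analysed give gene lists with enrichment statistics and no value per library: no level, fold between IP and input, direction or spread between replicates can be given for any gene, and the depth is unknown. Of 25 markers of brain cell types, 2 were named in the MDA231 table (MAP2 of neurons and PECAM1 of endothelium), and none of the astrocyte, microglia or oligodendrocyte markers were. This count cannot show whether host RNA was carried over. The identifiers are of human genes, the host brain is of mouse, and a marker in no row may still have been listed.

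Cells copy their genome once per division: origins are licensed by loading the MCM helicase, fired by kinases, and copied by polymerases held on a sliding clamp. Lesions are cut out by base excision, nucleotide excision and mismatch repair, or bypassed by tolerant polymerases, while breaks are rejoined end to end or repaired from a sister copy by homologous recombination. The kinases ATM and ATR report damage to the cell cycle machinery and to p53. Brain metastases are commonly treated with radiation, which breaks DNA.

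Of the 3 rows, the damage response row held the largest part of its background genes. In the authors' deposited table it listed 84 of 208 background genes (40.4%), a 1.87-fold enrichment (interval 1.5 to 2.31), with p = 1.45e-09 and a Benjamini adjusted p of 9.41e-06. The repair row of the authors' deposited table listed 85 of 235 genes (36.2%), 1.68-fold (1.34 to 2.07), with an adjusted p of 0.00051. The replication row listed 59 of 155 genes (38.1%), 1.76-fold (1.34 to 2.27), with an adjusted p of 0.00339 in the authors' deposited table. Intervals are exact binomial ones at 95% for the listed share, computed from the deposited counts, and cover the draw of genes only. The adjusted p of 15 of the table's 314 rows (4.78%) was under 0.05, and the unadjusted p of 214 rows (68.2%) was. The highest deposited unadjusted p among rows that name a gene of the set was 0.0973. Terms with a higher p appear to be left out. Both shares are therefore of the rows kept and not of the terms tested.

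Most of the genes stood in a single row. The damage row alone held 56 genes (31.3%), the repair row alone 48 (26.8%) and the replication row alone 34 (19%), which leaves 41 genes (22.9%) in at least 2 rows. The 5 genes of all 3 rows were ATR, the kinase activated by stalled forks, BLM, a RecQ helicase that unwinds recombination intermediates, MRE11, a nuclease that starts the cutting back of broken ends, RAD17, which loads the checkpoint clamp, and KIN, a zinc finger protein that binds DNA. Damage and repair shared 17 further genes, among them the gap-filling polymerase POLB and the helicase DDX11. Repair and replication shared 14 more, among them POLA1, POLE, POLH, POLK, REV1 and both CAF-1 genes. Damage and replication shared only 5 more: DTL, MCM9, PCLAF, TIMELESS and TIPIN. The marker genes divided the same way, with BLM and MRE11 in all 3 rows and MCM3 and KAT5 in the replication row alone.

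**Figure D1:**
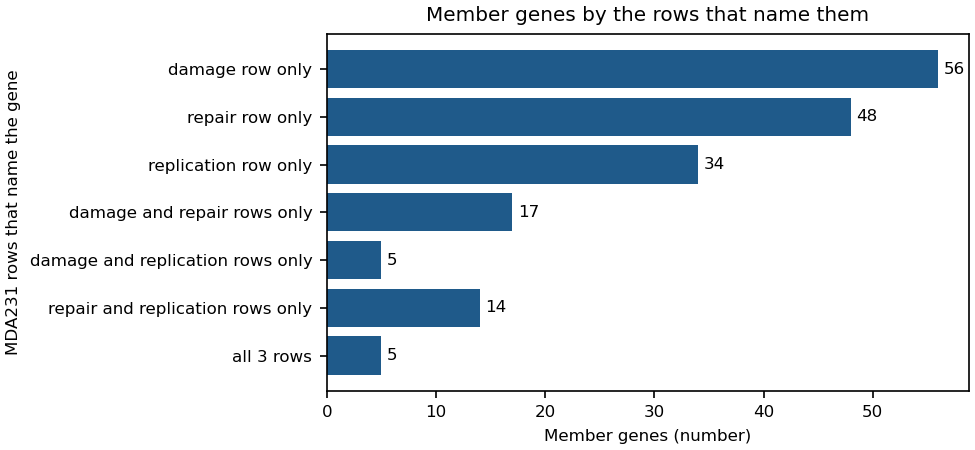
Number of genes in each combination of the damage response, repair and replication rows of the deposited MDA231 table. Bars are counts of genes. The single-row bars of 56, 48 and 34 genes are the tallest, and 5 genes stand in all 3 rows.

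The name of the gene set covers more than repair machinery. Of 422 genes on 27 lists of repair, replication and checkpoint components, 100 (23.7%) are in the set, 52 were named in other rows only, and 270 were named in no row. A gene in no row may still have been listed. Of 27 complexes counted, the pair TIMELESS and TIPIN was in the set whole. The remaining 79 genes of the set (44.1%) are on none of these lists and include signalling kinases, transcription regulators and innate immune genes. By role class, 47 genes of the set were placed under break, cross-link and fork repair and 42 under replication. A further 41 were placed under chromatin, transcription and ubiquitin processes, 32 under checkpoint, p53 and other signalling, and 17 under excision, mismatch and direct repair. The classes also hold loosely linked genes, such as RPS3 and NEK4 in the first, ACHE and EGF under replication, and IMMP2L and GNL1 under chromatin. These roles were partly assigned after the names were seen.

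**Figure D2:**
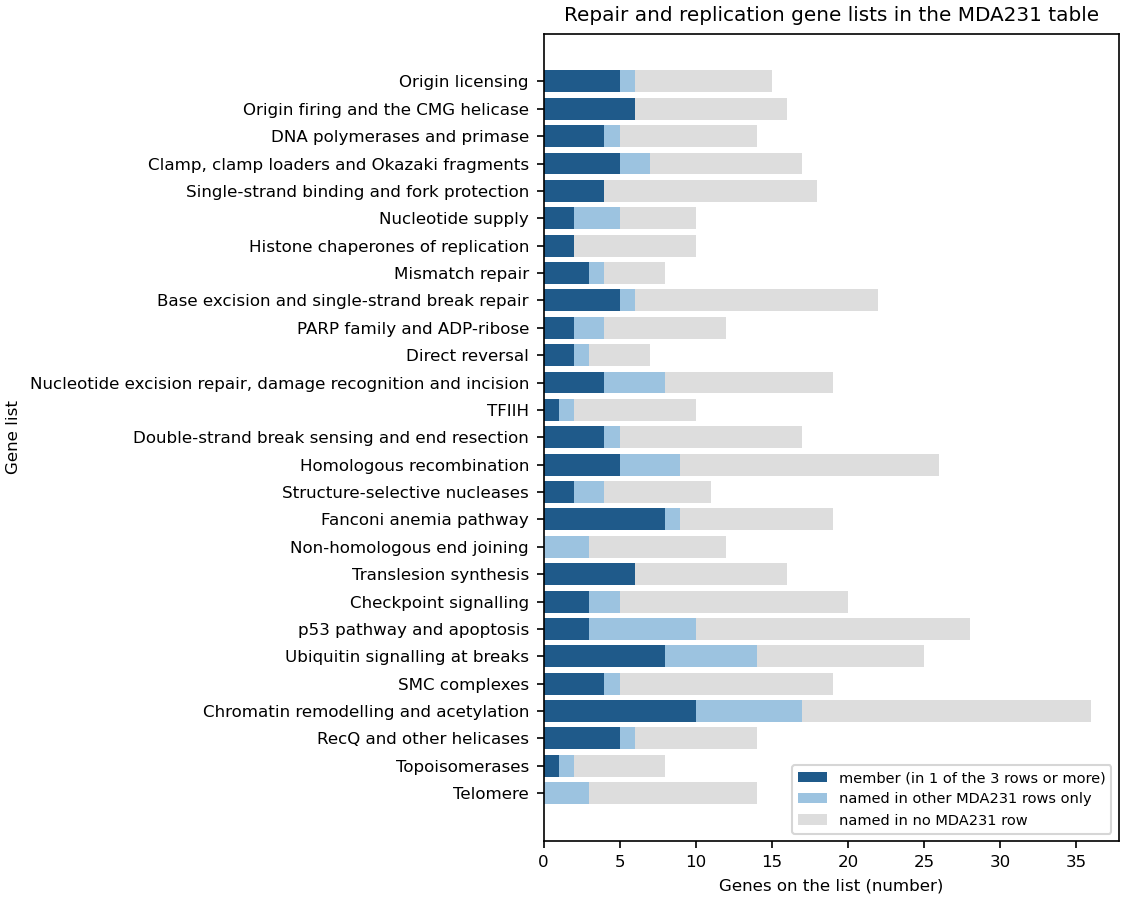
Genes of each component list that are in the set, that are named only in other rows of the MDA231 table, or that are named in no row. Bars are counts of genes, 1 list per line. Chromatin remodelling and acetylation (10), ubiquitin signalling at breaks (8) and the Fanconi anemia pathway (8) hold the most genes of the set, and end joining and telomere lists hold none. The lists differ in length: these shares are 27.8%, 32% and 42.1%, against 23.7% over all lists.

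Replication genes of the set act in licensing, firing, strand synthesis, clamp loading and fork protection. The licensing list gave 5 of 15 genes: ORC4 and ORC5 of the origin recognition complex, the loader CDC6, and MCM3 and MCM4 of the replicative helicase. MCM3 (ENSG00000112118; GRCh38 chromosome 6, 52264009 to 52284881, minus strand) stood in 4 rows, the other ones being DNA duplex unwinding, replication initiation and the G1/S transition. The remaining MCM helicase genes, MCM2, MCM5, MCM6 and MCM7, were named in no row. Firing gave 6 of 16: CDC45, GINS2 and GINS4, which complete the active helicase, CDC7 and its activator DBF4, and the cyclin-dependent kinase CDK2. Among polymerases 4 of 14 were in the set: POLA1 and POLA2, which start each strand, POLE, which extends the leading strand, and POLG, which copies mitochondrial DNA. No subunit of DNA polymerase delta was named in any row, and PRIM2, a primase subunit, was named only elsewhere. The list of the clamp, its loaders and Okazaki fragment genes gave 5 of 17, RFC2 and RFC3 of the loader, CHTF8 and DSCC1 of the CTF18 loader, and ATAD5, which unloads the clamp. The 5 are loader or unloader genes, and no gene of the list for the clamp itself or for joining Okazaki fragments, such as PCNA, FEN1 or LIG1, was in the set.

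Fork protection gave 4 of 18 genes: RPA2, which coats single strands, TIMELESS and TIPIN, both partners of the fork protection pair, and INTS3 of the SOSS complex. The lists of nucleotide supply (RRM1 and NUDT1) and of histone chaperones (CHAF1A and CHAF1B) gave 2 of 10 each. RRM1 is the large subunit of ribonucleotide reductase, whose small subunits RRM2 and RRM2B were in no row. A further 14 genes were annotated to replication in wider senses, among them DTL, which directs the licensing factor CDT1 to destruction, and PCLAF, a clamp-binding protein, but also EGF and ACHE, a growth factor and an acetylcholine-degrading enzyme.

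E2F factors are well known to act on replication genes, so their promoters were searched for the letters TTTNNCGC on both strands. Promoters ran from 250 bases before to 50 after the start and came from RefSeq on GRCh38.p14, where 152 of the 179 genes matched. In the replication class, 8 of 36 promoters (22.2%, interval 10.1 to 39.2) held the motif, against 6.9% of all 27305 promoters. The share was 8.86% for protein-coding promoters, 11.9% for other named genes and 12.4% for cell division genes outside the set. The last 2 shares lie inside the interval. On the coding strand alone, 4 of the 36 (11.1%) held it, against 6.37% for other named genes. Those 8 are shown because they carry the match. Each window has 60 bases, reads 5′ to 3′ along the gene's strand, and has the matched letters in capitals (some on the opposite strand). They were chosen after their values were seen.
CDC6 (chr17:40287860-40287919, plus strand): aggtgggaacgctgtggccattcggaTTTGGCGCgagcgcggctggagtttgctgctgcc
DTL (chr1:212035714-212035773, plus strand): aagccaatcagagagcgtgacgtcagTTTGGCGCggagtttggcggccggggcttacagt
GINS2 (chr16:85688952-85689011, minus strand): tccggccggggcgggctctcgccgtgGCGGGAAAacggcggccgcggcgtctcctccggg
MCM3 (chr6:52284713-52284772, minus strand): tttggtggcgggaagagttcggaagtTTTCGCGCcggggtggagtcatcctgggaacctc
POLA1 (chrX:24693755-24693814, plus strand): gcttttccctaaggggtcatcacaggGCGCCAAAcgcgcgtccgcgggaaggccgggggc
POLA2 (chr11:65261883-65261942, plus strand): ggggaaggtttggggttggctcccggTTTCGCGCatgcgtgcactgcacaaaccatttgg
POLE (chr12:132687327-132687386, minus strand): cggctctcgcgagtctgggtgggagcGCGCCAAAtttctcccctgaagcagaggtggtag
RFC3 (chr13:33818068-33818127, plus strand): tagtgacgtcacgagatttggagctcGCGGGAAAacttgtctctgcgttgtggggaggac
The match lay within 60 bases of the start in 7 of these 8 genes, from 55 bases before it in RFC3 to 7 after it in CDC6, and 137 before it in POLA1. A match is a run of letters and not a binding site.

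Excision repair gave genes of lesion recognition, incision and gap filling. Of 19 genes for nucleotide excision, 4 were in the set: XPC, which finds bulky lesions, and the nuclease genes ERCC1, ERCC4 and ERCC5. The 10-gene TFIIH list, the helicase and kinase complex that opens the lesion, gave MNAT1 alone, with CCNH named elsewhere. MNAT1 is also a subunit of the kinase that activates cyclin-dependent kinases and stood in 12 rows. Base excision gave 5 of 22 genes: the glycosylase MBD4, the endonucleases APEX1 and APEX2, POLB and TDP1, which frees ends trapped on topoisomerase. Mismatch repair gave 3 of 8, MSH3 and MSH6 of the mispair sensors and the nuclease EXO1. Direct reversal gave ALKBH1 and ALKBH2 of 7 genes, which remove alkyl groups. The PARP list gave PARP2 and DTX3L of 12, and PARP1, the main sensor of nicks, was named in no row.

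Among break repair routes, the recombination and cross-link lists had genes in the set and the end joining list had none. That contrast concerns the 3 rows of the rule and not how many genes of each route were listed. The authors' deposited end joining row listed 20 of 63 background genes (31.7%, 1.47-fold). Their homologous recombination row listed 24 of 74 (32.4%, 1.5-fold). The Fanconi anemia list, whose products unhook strands joined by cross-links, gave 8 of 19 genes: FANCA, FANCC, FANCG, FANCI, BRIP1, FAAP24, CENPS and CENPX. Of them, 6 belong to the 13-gene core complex and its anchors. Homologous recombination gave 5 of 26, among them RAD51C, RAD51D and XRCC2, which help build the filament that searches the sister copy, and RAD51AP1, which helps pairing. Of the 12 genes on the end joining list, XRCC4, DCLRE1C and CYREN were named in other rows, as were SFR1, SWSAP1, HELQ and TOP3B of the recombination list. Break sensing and resection gave 4 of 17 genes, MRE11, EXO1, BLM and TP53BP1, the last of which limits resection. The MRE11 partners RAD50 and NBN were named in no row.

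BLM (ENSG00000197299; chromosome 15, 90717327 to 90816165, plus strand) stood in 15 rows, and MRE11 (ENSG00000020922; chromosome 11, 94415578 to 94493908, minus strand) in 13. The helicase list gave 5 of 14 genes, BLM, RECQL5, BRIP1, DDX11 and FBH1. Structure-selective nucleases gave MUS81 and SLX1A of 11. The list of SMC complexes gave 4 of 19 genes: NSMCE1 and NSMCE3 of the SMC5/6 complex, PDS5B and NIPBL. The topoisomerase list gave TDP1 of 8. Of 14 telomere genes none was in the set, with TERF2, ACD and STN1 named elsewhere. Translesion synthesis gave 6 of 16: the bypass polymerases POLH, POLK and REV1, UBE2A and SHPRH, which modify the clamp, and SPRTN, a protease for proteins stuck on DNA.

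Checkpoint and p53 lists each gave 3 genes. The checkpoint list gave ATR, RAD17 and CHEK2 of 20 genes, and the p53 list gave CDKN1A, a cyclin-dependent kinase inhibitor, DDIT3, a stress transcription factor, and ZMAT3 of 28. Signalling genes outside the lists numbered 19 and included MTOR, the growth kinase, and MASTL, a mitotic kinase. The gene in most rows was TAF1, a subunit of the general transcription factor TFIID, with 18, ahead of MTOR with 16 and MYC, a growth transcription factor, with 15. TRAF6, an adaptor of innate immune signalling, stood in 14. It was among 7 innate immune and NF-kB genes, the others being IKBKG, IRF3, IRF7, MICA, TANK and XIAP, and all 7 stood in the damage row and in neither of the other rows of the rule.

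**Figure D3:**
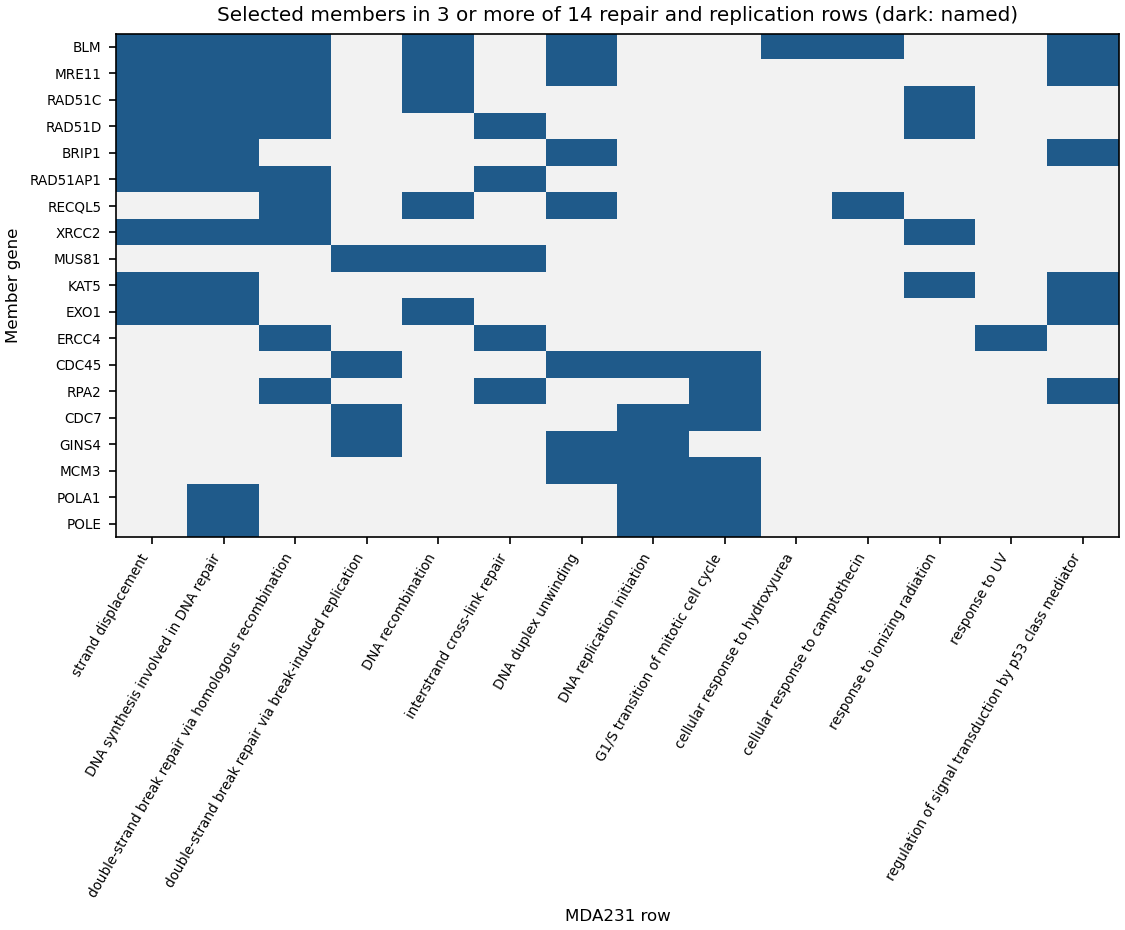
Rows of the MDA231 table (columns) that name each of 19 genes of the set (lines); a filled square means the gene is named. BLM fills 8 and MRE11 fills 6 of the 14 columns. The columns were picked from rows on repair, replication and related responses. The genes were chosen among those on a component list that stand in 3 or more of these columns. The grid therefore does not show the set as a whole.

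The chromatin list, the longest of those counted, gave 10 of 36 genes. That share (27.8%) was near the 23.7% over all lists, and most of the 10 belong to a single remodeller. The INO80 complex, which slides and exchanges nucleosomes and is recruited to forks and breaks, had 7 of its 15 genes in the set: INO80, INO80D, ACTR8, NFRKB, MCRS1, UCHL5 and RUVBL2. All 7 stood in the repair row alone among the 3 rows. The acetyltransferase KAT5 (ENSG00000172977; chromosome 11, 65711996 to 65719604, plus strand), which acts in the NuA4/TIP60 complex, stood in 13 rows. Only KAT5 and RUVBL2 of the 14 genes of that complex were in the set, with 5 others named elsewhere. SMARCB1 and KAT7 complete the list. Among ubiquitin genes that act at breaks 8 of 25 were in the set, among them the ligases RNF168 and FBXO6, BABAM2 of the BRCA1-A complex, and the deubiquitinase genes USP3, USP28, USP47 and OTUB1. RNF168, which marks histones beside breaks, stood in 11 rows.

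The starts of 6 genes of the INO80 complex are shown because the complex had the most members of any complex counted; RUVBL2, the seventh, fell outside the limit of 6 genes. Each run has 120 bases, 100 before to 20 after the RefSeq start on GRCh38.p14, 5′ to 3′ along the gene's strand, and capitals mark the GC box GGGCGG on either strand.
INO80 (chr15:41116261-41116380, minus strand): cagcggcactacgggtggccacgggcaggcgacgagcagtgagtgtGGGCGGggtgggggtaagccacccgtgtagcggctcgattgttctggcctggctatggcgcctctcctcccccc
INO80D (chr2:206086155-206086274, minus strand): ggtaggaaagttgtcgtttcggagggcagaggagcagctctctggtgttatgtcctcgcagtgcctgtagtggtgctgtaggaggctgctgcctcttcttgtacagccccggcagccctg
ACTR8 (chr3:53881820-53881939, minus strand): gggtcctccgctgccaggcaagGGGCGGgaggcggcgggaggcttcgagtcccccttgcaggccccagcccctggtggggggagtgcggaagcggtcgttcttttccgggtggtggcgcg
NFRKB (chr11:129895559-129895678, minus strand): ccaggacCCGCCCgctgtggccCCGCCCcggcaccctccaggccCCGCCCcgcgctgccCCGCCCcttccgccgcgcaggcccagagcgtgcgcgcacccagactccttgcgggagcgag
MCRS1 (chr12:49566420-49566539, minus strand): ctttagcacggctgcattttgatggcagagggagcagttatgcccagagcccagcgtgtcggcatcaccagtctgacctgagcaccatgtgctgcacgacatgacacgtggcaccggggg
UCHL5 (chr1:193059341-193059460, minus strand): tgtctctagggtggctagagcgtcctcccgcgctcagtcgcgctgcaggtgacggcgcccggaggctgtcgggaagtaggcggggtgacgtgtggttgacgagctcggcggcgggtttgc
A GC box lay in 3 of these 6 windows, INO80, ACTR8 and NFRKB. In the longer promoters of 250 bases before to 50 after the start, 5 of the 7 genes of the complex held it. Of such promoters of all 152 matched genes, 74.3% held one, against 71.4% for other named genes and 44.6% for all promoters.

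At least 1 of the other 311 rows named 163 of the 179 genes (91.1%, interval 85.9 to 94.8); for other named genes this share is 100% by construction. Over rows with no DNA, repair or chromatin word in the name, the share was 81.6% (75.1 to 87) for the set and 91.4% for other named genes. The latter is also raised by construction, since every other named gene stands in at least 1 of the 311 rows. Among the set, 16 genes stood in no other row, among them MSH3, ATAD5, MBD4 and TDP1. Genes of the set stood in a median of 4 rows (range 1 to 18), and other named genes in 2 (1 to 16), a difference to which the 3 rows of the rule add. Without these rows the medians were 3 and 2, where other named genes again have at least 1 row by construction and genes of the set may have none. Of the other rows, 160 held at least 1 gene of the set, 21 held 10 or more, and 151 held none.

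**Figure D4:**
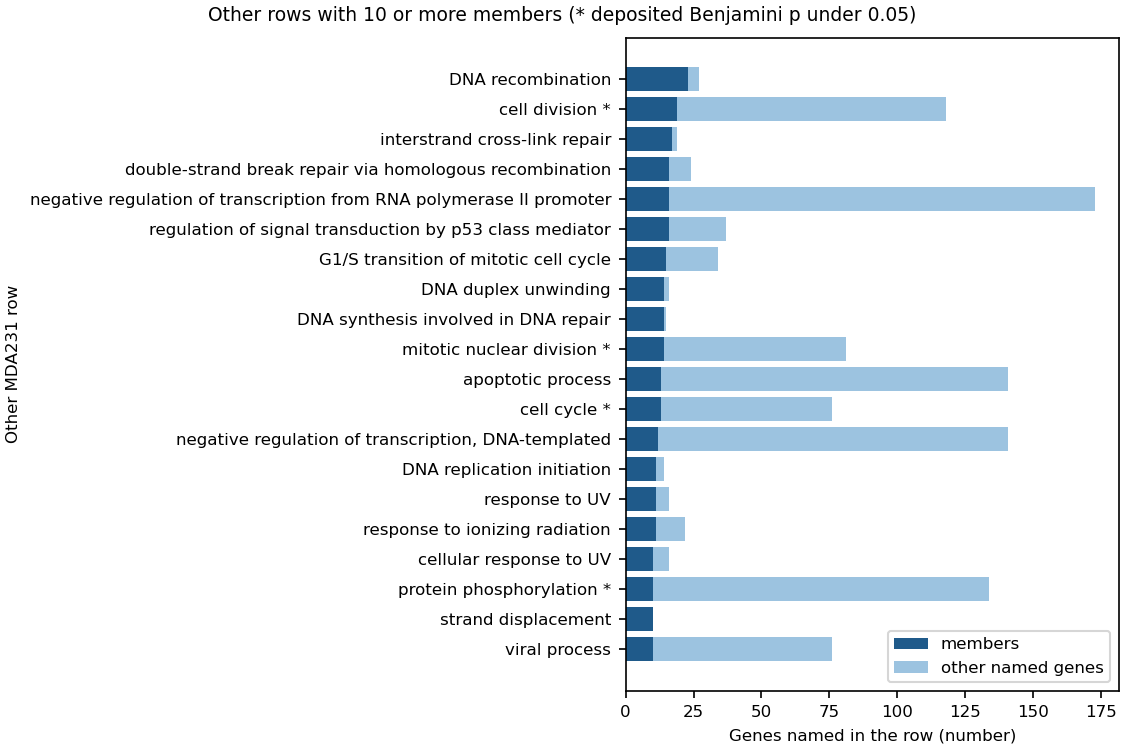
Genes of the set and other named genes in each other MDA231 row with 10 or more genes of the set; bars are counts of genes, and an asterisk marks an adjusted p under 0.05. The row "transcription, DNA-templated" (34 of 448 identifiers) is left out for scale. In DNA recombination 23 of 27 genes are of the set, and in cell division 19 of 118.

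Recombination and strand opening rows consisted mostly of these genes. DNA recombination held 23 of 27, at 1.51-fold and an adjusted p of 0.772 in the authors' deposited table. Interstrand cross-link repair held 17 of 19, at 1.8-fold and an adjusted p of 0.597 in the authors' deposited table. DNA duplex unwinding held 14 of 16, at 1.68-fold and an adjusted p of 0.842 there, and DNA synthesis in repair 14 of 15, the other gene being SIRT1, at 1.98-fold and 0.593 in the authors' deposited table. None of these adjusted values was under 0.05. Replication initiation held 11 of 14, with CCNE2, CDC34 and PRIM2 outside the set, at 2.03-fold and an adjusted p of 0.603 in the authors' deposited table. Response to ionizing radiation held 11 of 22, at 2.08-fold and an adjusted p of 0.148 in the authors' deposited table. The end joining row named 6 of the genes among its 20 (BABAM2, KAT5, MRE11, POLA1, RNF168 and TP53BP1), although the end joining list had none. Transcription-coupled excision repair held 8 of 24.

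Rows made up of the set alone numbered 4, and the same limit holds for them. Strand displacement had 10 genes, among them BLM, BRIP1, EXO1, KAT5, MRE11 and XRCC2, with an adjusted p of 0.96 in the authors' deposited table. Break-induced replication had CDC45, CDC7, GINS2, GINS4 and MUS81, which were all of its 5 background genes, and an adjusted p of 0.572 in the authors' deposited table. The response to hydroxyurea, which starves forks of nucleotides, had 6 of 7 background genes, among them BLM, DDX11 and TIMELESS, and an adjusted p of 0.524 in the authors' deposited table. The response to camptothecin, a topoisomerase poison, had 4 of 4, among them BLM and RECQL5, and an adjusted p of 0.815 in the authors' deposited table. A row of so few background genes needs nearly all of them listed to reach the p of the rows kept. The cell cycle phase transition row, with 4 of 5 listed, had a deposited unadjusted p of 0.0708. Full or nearly full listing of such small rows is thus a description only. BLM and MRE11 shared 6 other rows, and MRE11 and RAD51C shared 5.

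Of the 12 other rows with an adjusted p under 0.05 in the authors' deposited table, 9 named at least 1 gene of the set. Cell division named 19 of 118, mitotic nuclear division 14 of 81, cell cycle 13 of 76 and protein phosphorylation 10 of 134. In all, 42 genes of the set (23.5%, interval 17.5 to 30.4) stood in these 12 rows, against 658 of 2466 other named genes (26.7%).

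Median gene lengths of the set and of other named genes were close. The median gene span in GENCODE release 29 was 36761 bp (interval 31132 to 44170) for the set and 35661 bp for other named genes, and 27107 bp for protein-coding genes. The longest was IMMP2L at 899467 bp and the shortest TREX1, a nuclease, at 1835 bp. A coding neighbour starting on the opposite strand within 1000 bp, a divergent start, was found for 29 of the 179 genes (16.2%, 11.1 to 22.4). Shares were 16.4% for cell division genes outside the set, 9.94% for other named genes and 7.38% for protein-coding genes. Replication genes had it in 11 of 42 (26.2%, 13.9 to 42) and chromatin, transcription and ubiquitin genes in 2 of 41 (4.88%). The 29 genes formed 30 pairs; no partner was of the set, and 5 were named in the table. MCM4 and PRKDC, a kinase of end joining, start 2 bp apart, and PRKDC was named in no row.

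Each promoter motif was found in the set at a share close to that in other named genes. The E2F letters stood in 15.8% (10.4 to 22.6) of the set's promoters, 11.9% of those of other named genes and 6.9% of all promoters. By role they stood in 5 of 16 promoters of excision, mismatch and direct repair genes (31.2%, 11 to 58.7), more than in the replication genes shown above, and in 2 of 26 of checkpoint and signalling genes (7.69%), with intervals that overlap. ETS letters (CCGGAAG) stood in 25.7% of the set, 21.5% of other named genes and 10.7% of all promoters. NRF1 letters (GCGC, any base, then TGCGC) stood in 17.1%, against 12.6% of other named genes and 6.28% of all promoters. TATA letters (TATAAA) stood in 5.26% of the set, 5.14% of other named genes and 12% of all promoters, and CHR letters (TTTGAA) in 12.5%, 9.26% and 15.4% of the same groups. The CCAAT letters stood in 38.8% of the set and 36.7% of other named genes, and in 35.7% of all promoters. Motifs were sought on both strands, and a match of one motif may overlap a match of another. Median GC content was 65.5% for the set and 65.3% for other named genes, and 58.3% for all promoters.

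**Figure D5:**
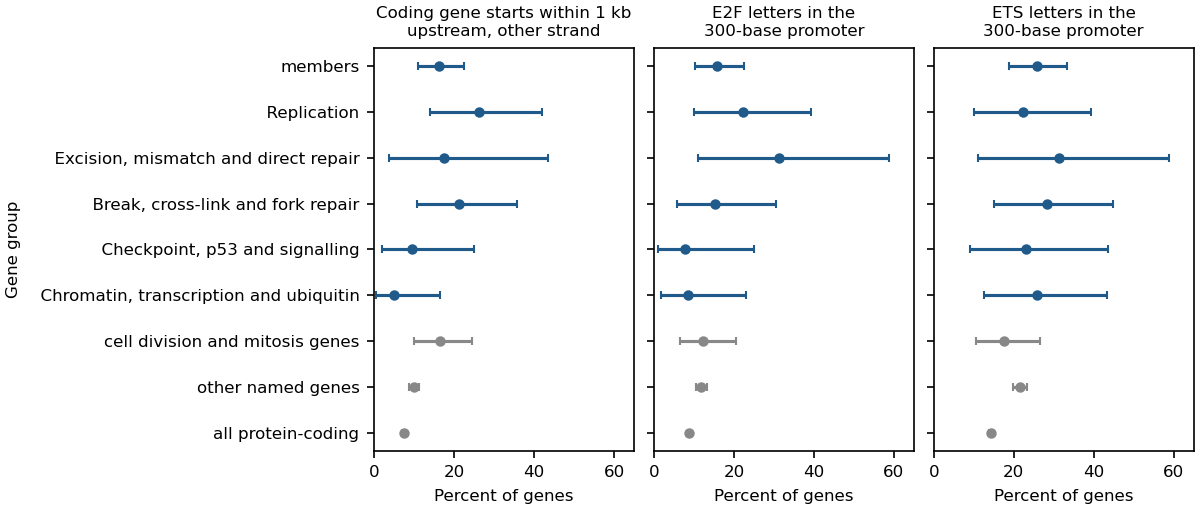
Percent of genes with a divergent coding start, with E2F letters and with ETS letters in the promoter, for the set and its 5 role classes (blue) and for cell division genes outside the set, other named genes and all protein-coding genes (grey); points are shares and bars exact 95% intervals. The divergent share was 16.2% in the set and 9.94% in other named genes, and intervals of the role classes are wide.

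Reads of some of these genes may have been shared with other loci, which was not tested. FANCI and POLG overlap by 12064 bp on opposite strands of chromosome 15 (89305198 to 89317261), and the sources used here do not state whether strand was used in counting. SLX1A, IKBKG and DDX11 have near-identical copies or pseudogenes, so their reads may have been split or shared. In the HCC1954 metastases no gene of the set was named. That table names 30 genes in 37 rows from 66 listed genes with a process, and these 30 are 0.179% of the background.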

How the data were processed

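Per the labels' protocols, mRNA from mouse brains was taken with oligo(dT) beads, immunoprecipitated with anti-BrdU antibody and amplified with a SMARTer kit. The submitters' processing notes name STAR and HTSeq, with GRCh38 and GRCm38. No source used here gives their versions, the enrichment tool or how genes were listed. The deposited tables hold, per the file headers, a count of genes (a number of identifiers per term), a percent of the list, p-values, a fold ratio and adjusted p-values. The percent, the p-values and the fold ratio are the authors' own; the false discovery rate was not used. No values per library were analysed, so the planned test of IP against input could not be made, and depth is unknown.

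Identifiers were matched to GENCODE release 29 (all 179) and promoters to RefSeq. Shares carry exact (Clopper-Pearson) 95% binomial intervals, which cover counting error only. The genes and lists were chosen with earlier results of these data known, and the roles of the 79 genes on no list, and the E2F windows, were added after the names were seen. Named genes were BLM, MRE11, MCM3 and KAT5, the 15 in most rows, those in all 3 rows and those on a list; others named were chosen after their values were seen, and some genes the rule takes are not reported here. The motif search was checked on simulated sequences of A and T with planted E2F letters. That check cannot test for false matches in GC-rich promoters. Python 3.11.15, SciPy 1.17.1, NumPy 2.4.6 and pandas 2.3.3 were used.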

Additional observations from a re-analysis of the deposited data

How the results depend on the processing

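No paired analysis was possible because the files analysed hold no value per library; for the same reason no replicate could be left out. Requiring at least 2 of the 3 rows left 41 genes and 27 on the component lists, against 179 and 100; counting list genes named in any row gave 152. The share of the set in another row (91.1%) was 23.5% over rows with an adjusted p under 0.05, 84.9% over rows with an unadjusted p under 0.05 and 81.6% over rows with no DNA, repair or chromatin word. The median number of rows per gene (4) was 1 over rows with an adjusted p under 0.05, and 48 other rows held at least 5 genes of the set, where 21 held at least 10. The length ratio of the set to other named genes (1.03) was 1.36 against protein-coding genes.

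The NRF1 difference was 10.8 percentage points against all promoters and 4.47 against other named genes, the ETS difference 15 and 4.16, and the GC box difference 29.8 and 2.89. Against other named genes the TATA difference was 0.121 and the CHR difference 3.24, the opposite sign to -6.69 and -2.93 against all promoters. Among protein-coding promoters, 9.63% held TATA letters and 12.1% CHR letters. All promoters held them in 12% and 15.4%, and the set in 5.26% and 12.5%. The causes were not tested. In genes of at least 2 rows the GC box difference was 41.1 and the CHR difference -9.71. The other 26 recomputed values stayed within 1.5 times, or within the interval, of the value reported. Among them is the E2F difference, 8.89 percentage points against all promoters and 3.84 against other named genes, which stayed only within the interval. The comparison with other named genes, with protein-coding genes and without the broad lists was added after the data were seen. Nothing here bears on the spread between libraries.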

Other observations

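Clusters within 100000 bp of each other were TTC5, PARP2 and APEX1 on chromosome 14, and KIF22, PAGR1, KCTD13 and TAOK2 on chromosome 16 between 29790719 and 29992261. KIF22, a chromosome-moving kinesin, stood in the repair row, as did PAGR1. KCTD13 stood in the replication row and TAOK2, a kinase, in the damage row. These were chosen after their values were seen.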
